A study of Mus musculus with 2 samples.

Results

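The genes described here are 38 fibrillar collagens and stromal matrix genes, chosen by symbol among the 31053 features of 2 single-cell RNA libraries of mouse back skin. Each symbol matched 1 feature, and all 38 were placed by symbol in RefSeq on build GRCm38.p6. They were followed in 4 kinds of cell, set by UMIs of marker genes that are not among the 38: dermal fibroblasts, the dermal papilla (the mesenchymal cluster at the base of the follicle), the bulge (the niche of the hair follicle stem cells) and the hair germ (the progenitors between bulge and papilla). The study asked how miR-205, a microRNA of skin epithelium, alters the follicle stem cell compartment.

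The control library came from 1 mouse and the miR-205 induced library from 1 mouse carrying a pTRE2-miR-205 transgene with Krt14-rtTA, and both carried a K14-H2BGFP allele. The labels give both as C57BL/6, while the methods say that the transgene was injected into FVB mice, and they describe littermate controls of matched sex run on the same chip. Skin was taken at postnatal day 53, after doxycycline chow for 4 days from postnatal day 49. The protocol says that both mice ate the chow, but the control is labelled untreated. The Krt14 promoter drives the transgene in keratin 14 epithelium, which holds the bulge and hair germ but not the fibroblasts or papilla cells. Cells were sorted so that epidermal, follicle and dermal cells entered at 3:5:2, a gate that sets the share of each kind of cell.

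With 1 library per group there was no replicate check and no test, and every interval below covers counting error only. There were 4545 control barcodes with 55465594 UMIs in total and 4264 induced barcodes with 49733560, of which 3936 and 3628 passed the cell filter. The libraries shared 11 barcode sequences. The gates gave 112 control and 162 induced fibroblast-like cells, 142 and 209 dermal papilla-like cells, 162 and 255 bulge-like cells, and 58 and 50 hair germ-like cells. Median depth was 11229 and 9994.5 UMIs per fibroblast-like cell, 4869 and 5879 per papilla-like cell, 10406 and 10453 per bulge-like cell, and 11709 and 11969.5 per hair germ-like cell. Of check markers that the gates did not use, fibroblast-like cells had all 5, and papilla-like cells all 7, raised at least 2-fold over the remaining cells in both libraries. Bulge-like cells had 5 of 5 raised in the control and 3 of 5 in the induced library, where Sox9 and Nfatc1 were under that mark. Hair germ-like cells had 4 of 5 and 3 of 5 raised, with Fgf18 at 0 UMIs in the control and Dlx3 at 0 in the induced library. In the control Msx2 and Dlx3 passed on only 4 and 2 UMIs. In the induced library Fgf18 had 2 UMIs, at 0.177 times the level of the remaining cells. The hair germ gate was the least firm, since 19 of 58 control and 18 of 50 induced cells held only the 2 Lgr5 UMIs needed to pass. At the bulge gate 37 of 162 control and 26 of 255 induced cells lay at the lowest value that passes. The bulge gate genes were higher in the induced bulge-like cells, Krt24 at 586 and 1150 CPM and Cd34 at 684 and 904 CPM. Stricter gates kept 33 control and 109 induced bulge-like cells. The part of these gate differences in the bulge results was not tested.

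Skin matrix is laid down mainly by fibroblasts. Fibrillar collagens form the load-bearing fibres, small leucine-rich proteoglycans such as decorin, lumican, biglycan and asporin bind those fibres or the growth factors held in them, and elastic fibre, matricellular and basement membrane proteins organise the rest. Metalloproteinases cut the matrix and TIMPs inhibit them, and in the follicle a basement membrane separates the bulge and hair germ from the surrounding dermis.

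The sequence that defines the induced library is miR-205-5p, at chr1:193507503-193507524 on the minus strand of GRCm38.p6 (RefSeq), shown with its seed, bases 2 to 8, in capitals.
miR-205-5p: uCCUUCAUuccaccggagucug
The complement of the seed, ATGAAGG, was searched on the transcript strand in the longest annotated 3′ UTR of each gene (GENCODE annotation of build NCBIM37). It occurred in 4 of the 37 genes with a UTR, or 10.8%, against 10.3% of all 20007 coding genes. Eln had no UTR in that annotation and was not searched. These are the 4, with the seed match in capitals, because they are the only members searched that carry such letters. None is a fibrillar collagen.
Col16a1 first match: ccatgaagagcATGAAGGggcctttcggt
Col16a1 second match: cccacactgagATGAAGGactctactagg
Col18a1: gcacttgtcctATGAAGGgacttgtgtgc
Lum: gattttaattaATGAAGGaaatgttttat
Mfap5: agaaaatgtggATGAAGGaatcgaaaatt
A match is a run of letters and not a measured site. The paper's capture of mRNAs ligated to miR-205 (CLEAR-CLIP) lists Thbs1 and Fn1 among the bound genes. Neither had a seed match in the UTR searched here. Counted from the start of the UTR, the Col16a1 matches lie at bases 1630 to 1636 and 1670 to 1676 of 1841, that of Col18a1 at 846 to 852 of 1016, that of Lum at 131 to 137 of 652 and that of Mfap5 at 29 to 35 of 859.

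The 38 genes together were chiefly a fibroblast signal. They made up 15.4% of all UMIs of control fibroblast-like cells and 10.3% of those of induced ones. In papilla-like cells the share was 0.929% and 0.985%, in bulge-like cells 0.574% and 0.365%, and in hair germ-like cells 0.336% and 0.264%. Among the 4 populations, 32 of the 38 were highest in fibroblast-like cells in the control and 33 in the induced library. The exceptions were Aspn, highest in papilla-like cells of both libraries, Col18a1 and Postn, highest in bulge-like cells of both, and Thbs1, Tnc and Col6a3, whose highest population differed between libraries or was the papilla in the control alone. UMIs were counted at the 3′ end and do not scale with transcript length. Levels are the summed UMIs of a population scaled to a fixed library total (CPM), and ratios are taken within a gene.

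**Figure D1:**
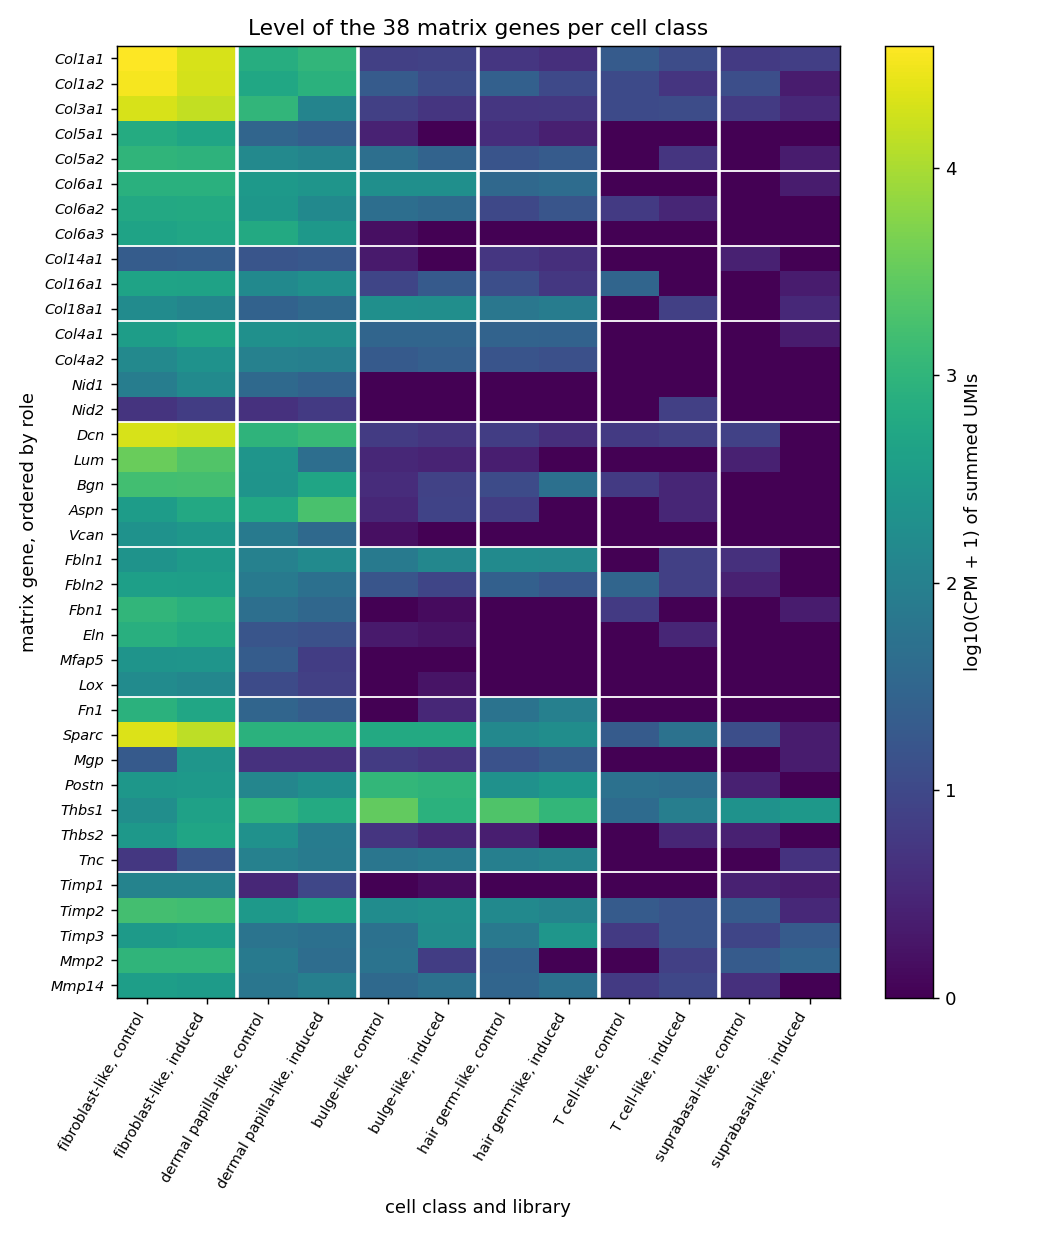
Level of each of the 38 genes (rows, grouped by role with white lines) in 4 populations and in T cell-like and suprabasal-like cells of each library (columns), as log10 of CPM plus 1. Type I collagen is brightest in the fibroblast columns, at 19335 CPM or more for both chains in both libraries. It is at 19.9 CPM or less in the T cell-like and suprabasal-like columns.

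Free RNA was measured in T cell-like cells (39 control, 85 induced) and suprabasal-like cells (33 and 35), which should not make fibrillar collagen. Col1a1, Col1a2, Col3a1 and Dcn together stood at 113437 CPM in control and 72525 CPM in induced fibroblast-like cells. In T cell-like cells they stood at 44.7 CPM (95% interval 20.4 to 84.8) and 31.5 CPM (17.6 to 51.9), and in suprabasal-like cells at 28.1 CPM (16.4 to 45.03) and 9.76 CPM (4.21 to 19.2). Bulge-like cells, at 37.3 CPM (28.8 to 47.6) and 25.4 CPM (19.8 to 32.2), and hair germ-like cells, at 39.5 CPM (26.0 to 57.5) and 20.04 CPM (10.7 to 34.3), had intervals that overlap those of the T cell-like cells. They overlap those of the suprabasal-like cells too, except in induced bulge-like cells. The sum is therefore read as background, except that Col1a2 in the bulge passed its reference on few UMIs, given below. Taking for each gene the higher of the 2 reference classes as its background, 36 of 38 genes in fibroblast-like cells and 35 in papilla-like cells were above it in both libraries, with their lower interval bound. The number was 17 in bulge-like cells and 16 in hair germ-like cells, and 11 and 16 were above it in neither library. These counts are loose, because the counting error of the reference was not used. Where the reference held 0 UMIs, 1 UMI was enough to pass, as for Col5a1 in hair germ-like cells on 2 and 1 UMIs. A reference class can also express a gene itself, so this background can exceed the free RNA.

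In fibroblast-like cells the abundant collagens were lower in the induced library, inside 2-fold on summed UMIs and by more in the median cell. Col1a1 (chr11:94936224-94953042 on GRCm38.p6), the main chain of type I collagen, stood at 38698 CPM (38361 to 39037) in the control and 20488 CPM (20272 to 20705) in the induced library. That is a log2 ratio, induced over control, of −0.92 (−0.94 to −0.90), and the intervals do not overlap. Its partner chain Col1a2 went from 34073 to 19335 CPM (log2 ratio −0.82), and Col3a1, the type III chain mixed into the same fibres, from 20165 to 14461 CPM (−0.48). Col5a1 and Col5a2, minor chains that set fibre width, had log2 ratios of −0.43 and −0.13, so all 5 fibrillar collagens lay below 0. Sparc, a collagen-binding glycoprotein, was lower too, at 22618 CPM in the control and 13474 CPM in the induced library (−0.75). Dcn, decorin, differed little, at 20501 and 18242 CPM (−0.17), while Lum, lumican, had a log2 ratio of −0.61 and Fn1, fibronectin, one of −0.73. Most cells of both libraries held the transcript, since 108 of 112 control cells (96.4%) and 145 of 162 induced cells (89.5%) had a Col1a1 UMI. Those shares compare with 10.3% and 5.88% of T cell-like cells, whose median depth was 4451 and 5071 UMIs.

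The shift was also seen in the median cell, while the cells of the 2 libraries overlapped widely. The 38 genes took a median of 12.99% of a control fibroblast-like cell's UMIs and 6.07% of an induced one's. The median cell held 23384 CPM of Col1a1 in the control and 5471 CPM in the induced library, and 27185 and 4553 CPM of Col1a2. The Col1a1 log2 ratio was −1.01 under 5% mitochondrial UMIs and −1.10 when CPM was averaged over cells, past 2-fold in 2 of 13 alternatives. UMIs of the fibroblast gate genes, none of them among the 38, had a median of 122 in control cells and 79.5 in induced cells and a mean of 127.7 and 115.9. Summed over cells they stood at 10990 and 11157 CPM, of which Gsn alone made 6355 and 7052 CPM. The other gate genes were split. Clec3b (1189 and 959 CPM), Pi16 (992 and 820 CPM), Serpinf1, Scara5, Cd248 and Twist2 were lower in the induced library. Dpt (474 and 563 CPM), Pdgfra, Cygb and Fap were higher, and their part in the result was not tested. Among cells with at least 6 different fibroblast gate genes (93 control and 114 induced), an alternative chosen after seeing the data, the log2 ratio was −0.76 for Col1a1, −0.66 for Col1a2 and −0.62 for Sparc.

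**Figure D2:**
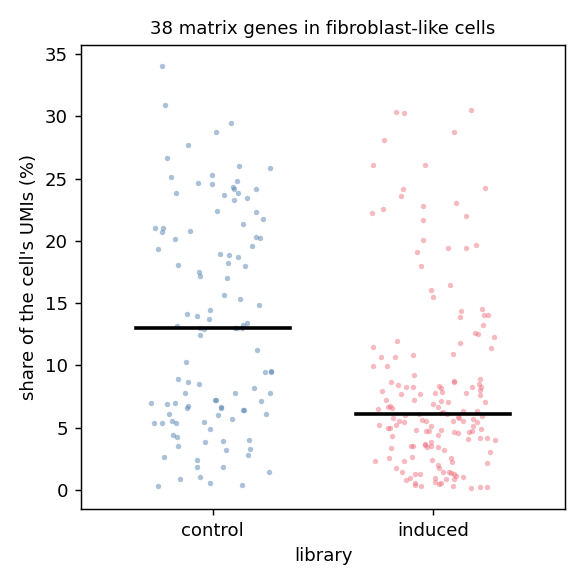
Share of each fibroblast-like cell's UMIs taken by the 38 genes together (y axis, percent), for the control and the induced library (x axis), with 1 point per cell and a black bar at the median. The median is 12.99% in the control and 6.07% in the induced library, and the points of the 2 libraries overlap widely.

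Past 2-fold, the members that differed were higher. Among the 37 members that reached 20 UMIs in the pooled libraries, 3 were higher past 2-fold, against 5% of all 8200 genes tested, and 0 were lower past 2-fold, against 1.9% of them. The median log2 ratio of the 37 was −0.01 beside 0.07 for all genes, so the list as a whole did not lean either way although its most abundant members did. Mgp, a calcification inhibitor of vessels and cartilage, had 25 UMIs (19.2 CPM) in the control and 425 UMIs (252 CPM) in the induced library, a log2 ratio of 3.69 (3.13 to 4.36). It came from a minority of cells, 9 of 112 (8.04%) and 37 of 162 (22.8%), and its 5 highest cells held 84.0% and 44.5% of its UMIs. Mgp was also higher in the other keratinocytes, epithelial cells outside the bulge, hair germ and suprabasal gates, at 6.85 and 20.6 CPM (1.59). Thbs1, the matricellular protein thrombospondin 1, stood at 187 and 424 CPM (log2 ratio 1.17). Its background was 218 and 282 CPM, so it was above background in the induced library only, and under looser gates the log2 ratio was −0.15. That background came from suprabasal-like cells, of which 60.6% and 45.7% held a Thbs1 UMI. It can therefore include their own expression beside free RNA. A Thbs1 UMI was found in 47.3% and 46.9% of cells, and the 5 highest cells held 62.3% and 37.4% of its UMIs. Tnc, tenascin C, had 6 and 26 UMIs, too few for the rule on named genes, and is given because it is the remaining gene past 2-fold.

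The other fibroblast values were smaller. Col4a1, Col4a2 and Nid1, which code for basement membrane proteins, were above 0, with log2 ratios of 0.44, 0.57 and 0.85 (0.53 to 1.18). The first 2 overlap at their starts in RefSeq. Col18a1, also a basement membrane collagen, was lower in the induced library, at 164 and 119 CPM (−0.46, −0.75 to −0.18). Nid2 had 5 and 10 UMIs and was not assessed. Aspn, asporin, went from 348 to 593 CPM (0.77) and Thbs2 from 280 to 488 CPM (0.80), and in each pair the intervals do not overlap. Type VI collagen, a beaded filament of 3 chains, stood between 0.01 and 0.21 for Col6a1, Col6a2 and Col6a3. The elastic fibre genes Fbln1, Fbln2, Fbn1, Eln, Mfap5 and Lox ranged from −0.37 to 0.48, and Col14a1, Col16a1 and Col18a1 from −0.46 to 0.11. Among the proteases and inhibitors, Mmp2, Mmp14, Timp1, Timp2 and Timp3, the log2 ratios lay between −0.15 and 0.25. The remaining members, Bgn, Vcan and Postn, had log2 ratios of 0.04, 0.29 and 0.09. Of 47 further matrix genes, which cover collagen-modifying enzymes, other collagens, matrix proteases and receptors, 43 were tested, with 2 higher past 2-fold and 0 lower. They were Ccn2, a matricellular protein, at 33.8 and 77.2 CPM (log2 ratio 1.18), and Col12a1 with 7 and 19 UMIs.

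**Figure D3:**
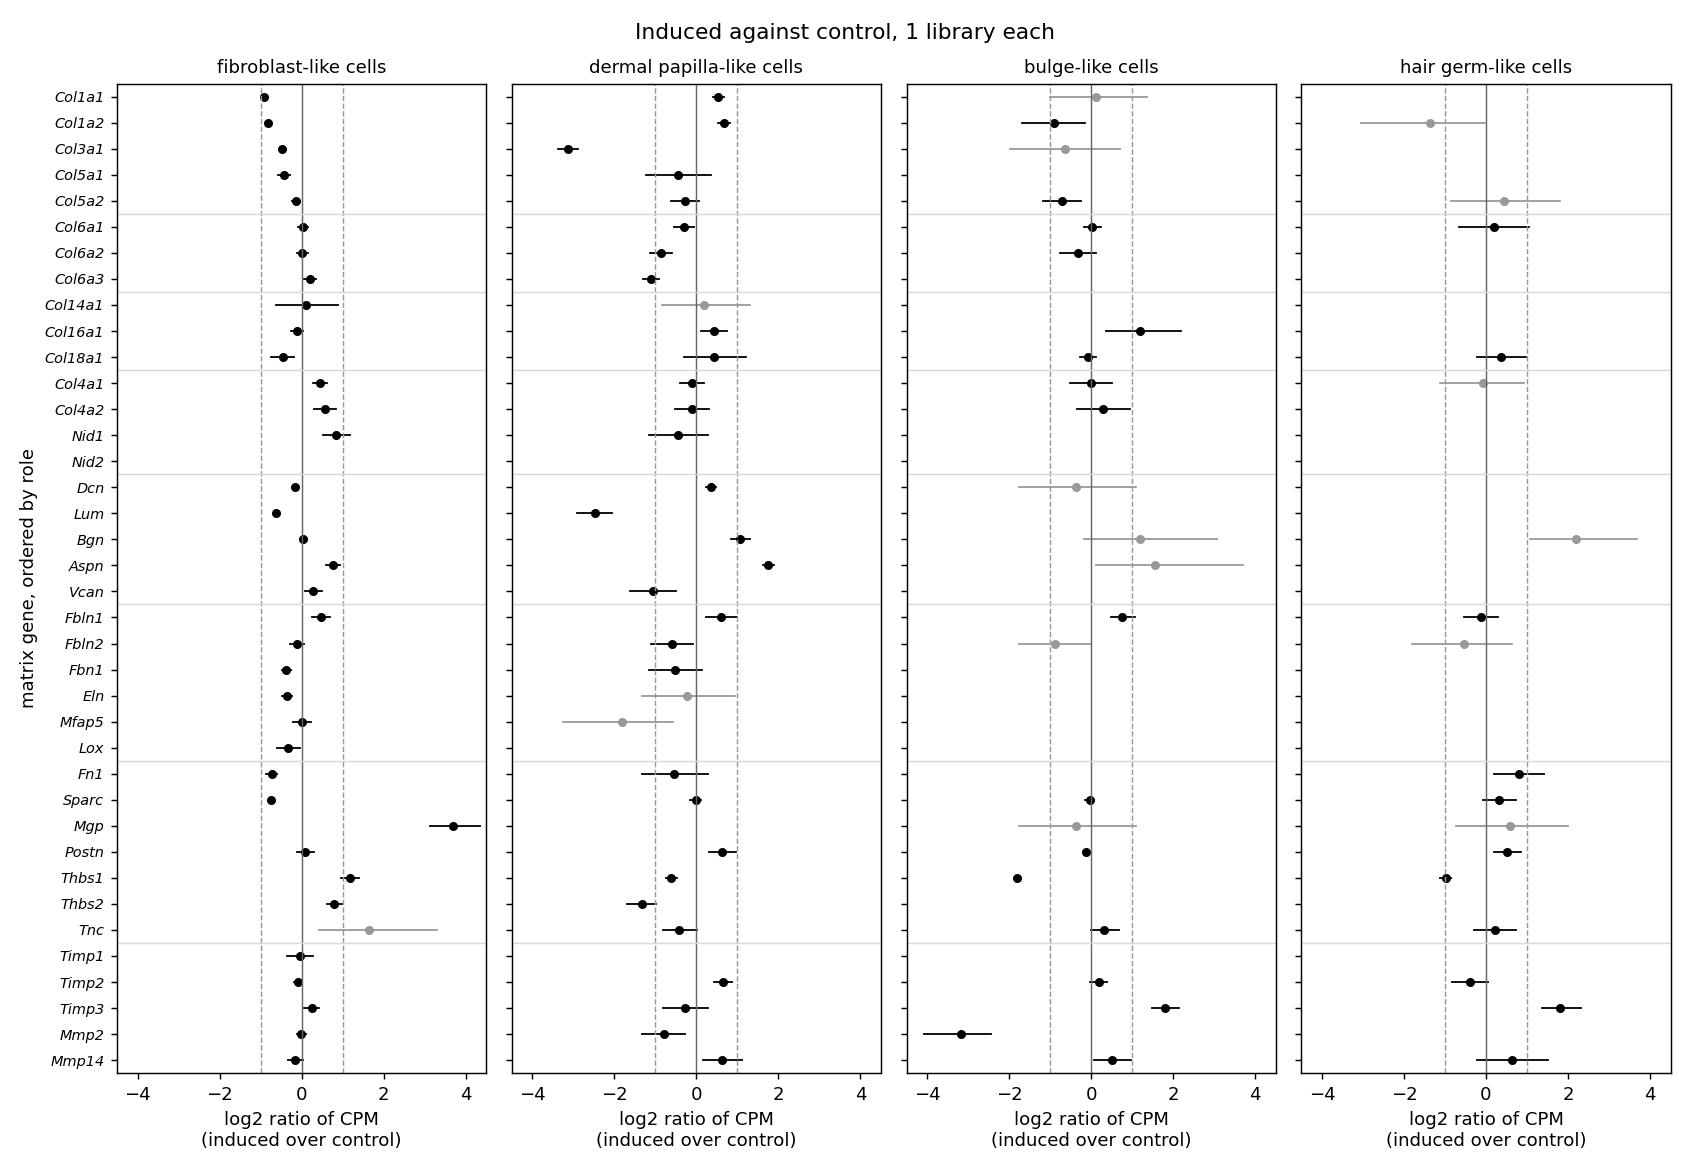
Log2 ratio of CPM, induced over control (x axis), for each gene tested in each population (panels), with 95% counting intervals. Black points have at least 50 UMIs over both libraries, grey points fewer, and dashed lines mark 2-fold. The 5 fibrillar collagens lie below 0 in fibroblast-like cells, Aspn and Bgn beyond 1 in papilla-like cells, and Timp3 beyond 1 in both epithelial populations.

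In papilla-like cells the small proteoglycans asporin and biglycan were higher in the induced library. Aspn (chr13:49544443-49567565) had 485 UMIs or 556 CPM (507 to 608) in the control and 2636 UMIs or 1881 CPM (1810 to 1954) in the induced library. The intervals lie far apart, with a log2 ratio of 1.76 (1.62 to 1.90). Cells were then thinned to a fixed 3000 UMIs, and 15 shallower cells of the control and 8 of the induced library were dropped. An Aspn UMI remained in 60.6% (51.6 to 69.2) of control cells and 90.5% (85.6 to 94.2) of induced cells, against 70.4% and 93.3% unthinned. T cell-like cells were at 0% and 1.18% unthinned. Bgn, biglycan, stood at 237 CPM (206 to 272) and 501 CPM (465 to 539), a log2 ratio of 1.08. Its thinned share of cells with a UMI was 37.8% in the control and 68.2% in the induced library. Both genes were spread over many cells, the 5 highest cells holding 17.7% and 15.8% of the Aspn UMIs and 37.7% and 24.5% of the Bgn UMIs. Fibroblast gate genes also moved in these cells, with medians of 7 UMIs in the control and 13 in the induced library and summed levels of 1595 and 2374 CPM, while papilla gate genes had medians of 17 and 14, and their part in the result was not tested. In the 48 control and 45 induced papilla-like cells with fewer than 3 different fibroblast gate genes, an alternative chosen after seeing the data, the log2 ratio was 1.495 for Aspn and 1.65 for Bgn. Neither difference was particular to the papilla. In the other keratinocytes Aspn stood at 13.1 and 23.8 CPM (0.86) and Bgn at 1.74 and 4.13 CPM (1.24).

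Type I collagen and decorin gave a different picture, since a few cells held most of their UMIs. Col1a1 was at 712 and 1029 CPM (log2 ratio 0.53) and Dcn at 968 and 1242 CPM (0.36), but the 5 highest cells held 94.5% and 63.2% of the Col1a1 UMIs and 94.8% and 61.5% of the Dcn UMIs. Only 21 of 142 control cells (14.8%) and 27 of 209 induced cells (12.9%) held any Col1a1 UMI. Sparc, at 843 and 834 CPM, had 84.4% and 62.1% of its UMIs in 5 cells. Without the 5 highest cells of each gene, the log2 ratios became 3.26 for Col1a1, 3.23 for Dcn and 1.26 for Sparc, and under looser gates Col1a1 was at −0.81, so the pooled values of these 3 rest on those few cells.

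**Figure D4:**
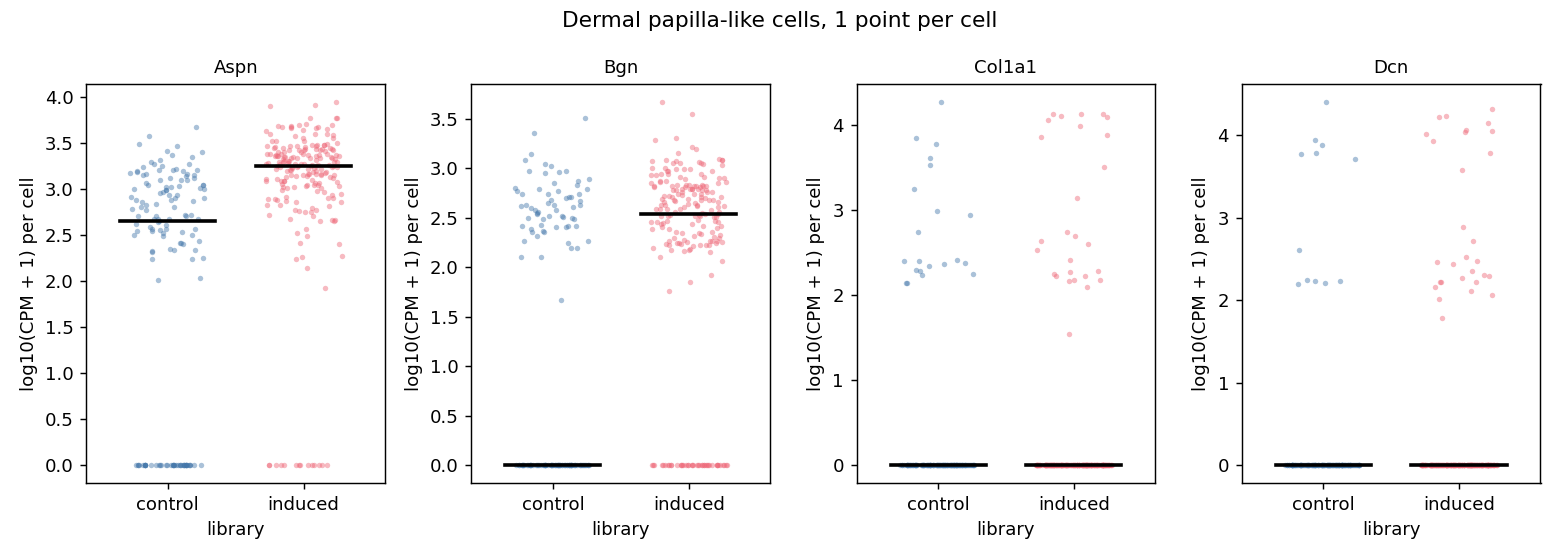
Level of Aspn, Bgn, Col1a1 and Dcn in each papilla-like cell (y axis, log10 of CPM plus 1) of the control and the induced library (x axis), with 1 point per cell and a black bar at the median. The Aspn median is 441 CPM in the control and 1740 CPM in the induced library, while most cells lie at 0 for Col1a1 and Dcn and a handful lie above 1000 CPM.

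Of 34 genes tested in papilla-like cells, 2 were higher past 2-fold, Aspn and Bgn, against 3.53% of all 7867 genes, and 6 were lower, against 4.88% of them. The median was −0.28 beside −0.07 for all genes. The 6 lower genes did not all stand on the same footing. Col3a1 went from 1036 to 118 CPM (−3.13), and 85.7% of its control UMIs lay in 5 cells, and Lum went from 246 to 44.2 CPM (−2.47), with 98.1% and 87.1% in 5 cells. Mfap5, an elastic fibre microfibril gene, had 18 and 8 UMIs, all of them in at most 5 cells of each library. Col6a3, the third chain of type VI collagen, was more evenly held, at 601 CPM (550 to 654) and 278 CPM (251 to 307), with 16.6% and 14.9% of UMIs in 5 cells and a log2 ratio of −1.11 (−1.31 to −0.92). Its sister chains were on the same side, Col6a1 at −0.30 and Col6a2 at −0.86. Thbs2 stood at 206 and 82.1 CPM (−1.33), and Vcan, versican, a large proteoglycan known as a papilla marker in growing follicles, at 75.6 and 36.4 CPM (−1.05). In the cells with fewer than 3 fibroblast gate genes, Col3a1 was at −0.83, Col6a3 at −0.87 and Thbs2 at 0.57, 5 of 20 tested members were higher past 2-fold, against 4.69% of all 4289 genes tested in those cells, and 0 were lower, against 8.65% of them. With clusters in place of gates, Lum was at 1.41. Aspn, Bgn, Col3a1, Col6a3 and Vcan kept their sign in every alternative run, with Bgn, Col3a1 and Col6a3 inside 2-fold in 2 of 13 each and Vcan in 4 of 12.

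Thbs1, the remaining member among the 5 with the most UMIs in the papilla, stood at 978 and 640 CPM (−0.61). The remaining members that were tested, among them the type IV chains, the proteases and their inhibitors, had log2 ratios between −0.86 and 0.67, and Mgp, Nid2, Timp1 and Lox had fewer than 20 UMIs. Of the 47 further matrix genes, 43 were tested, with 4 higher past 2-fold and 6 lower. Fmod, fibromodulin, of the same proteoglycan family as asporin, went from 117 to 640 CPM (log2 ratio 2.45). Ogn, osteoglycin, another member of that family, went from 10.3 to 153 CPM (3.82, 9 and 215 UMIs), Fbln5 from 77.9 to 163 CPM (1.05) and Mmp3 from 16.0 to 49.2 CPM (1.58). The lower ones included Efemp1 (−2.27) and Mfap4 (−1.36). The other 4 were below their background in both libraries, namely Tgfbi (−1.36), Col17a1 (−1.23), Itga2 (16 and 4 UMIs) and P4ha2 (19 and 9 UMIs).

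In bulge-like cells the members with the clearest differences were a matricellular gene, a protease and a protease inhibitor. Thbs1 (chr2:118111876-118127133) had 5237 UMIs or 3006 CPM (2925 to 3089) in the control and 2326 UMIs or 858 CPM (823 to 893) in the induced library, a log2 ratio of −1.81 (−1.88 to −1.74). The control level was 13.8 times, and the induced level 3.04 times, the higher reference class of its library, 218 and 282 CPM. The median cell held 1623 CPM in the control and 87.0 CPM in the induced library. After thinning, 74.7% (67.3 to 81.2) of control cells and 39.5% (33.5 to 45.8) of induced cells held a Thbs1 UMI. Thbs1 is also known as an early response gene, so 16 genes of the dissociation and immediate early response, listed after seeing the data, were counted beside it. They took 3.03% of control and 3.41% of induced UMIs, with a median log2 ratio of 0.14, 4 of 16 genes below 0 and 0 lower past 2-fold. The part of this response in the Thbs1 difference was not tested.

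Timp3 (chr10:86300412-86349505), an inhibitor of metalloproteinases that is held in the matrix, stood at 51.1 CPM (41.0 to 62.9) in control and 178 CPM (163 to 195) in induced bulge-like cells. The log2 ratio was 1.80 (1.48 to 2.15), and the intervals do not overlap. A Timp3 UMI was found in 29 of 162 control cells (17.9%) and 143 of 255 induced cells (56.1%), or 9.26% and 29.2% after thinning. Suprabasal-like cells, at a median depth of 19637 and 23181 UMIs, showed 15.2% and 20%, and 0% of them held one after thinning. Among control cells the 5 highest held 50.6% of the UMIs, and 19.8% among induced cells, and without these cells the log2 ratio was 2.49. Krt75 and Krt79, keratins of the inner bulge and of the upper follicle, were higher in the induced bulge-like cells as well, at 7.46 and 17.0 CPM and at 35.02 and 200.3 CPM, the latter in 17.9% and 12.5% of cells, and their part in the result was not tested. Without cells that held a Krt75 UMI, chosen after seeing the data, Timp3 was at 1.75, Thbs1 at −1.85 and Mmp2 at −2.93. In the other keratinocytes Timp3 stood at 181 and 163 CPM (−0.15), and Thbs1 at 1388 and 999 CPM (−0.48).

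Mmp2 (chr8:92827290-92853421), the gelatinase that degrades type IV collagen, had 95 UMIs or 54.5 CPM (44.1 to 66.7) in control and 16 UMIs or 5.90 CPM (3.37 to 9.58) in induced bulge-like cells. Its log2 ratio was −3.17 (−4.07 to −2.44). It was above the reference level in the control, 19.9 CPM, and below it in the induced library, 29.3 CPM, and the ratio carries a low count. Since induced bulge-like cells lay below the reference, it is not read as a level of free RNA for this gene. A UMI was found in 36.4% of control and 5.10% of induced cells, against 33.3% and 37.1% of the deeper suprabasal-like cells. In thinned cells the shares were 13.6% (8.71 to 19.8) and 0.395% (0.0100 to 2.18) in bulge-like cells and 3.33% and 5.71% in suprabasal-like cells. In fibroblast-like cells Mmp2 stood at 989 and 984 CPM (−0.01), and the other keratinocytes stood at 14.4 and 7.59 CPM (−0.92). Mmp14, the membrane protease that activates the Mmp2 proenzyme, was at 35.6 and 50.9 CPM (0.51), and Timp2, which takes part in that activation, at 168 and 190 CPM (0.18).

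**Figure D5:**
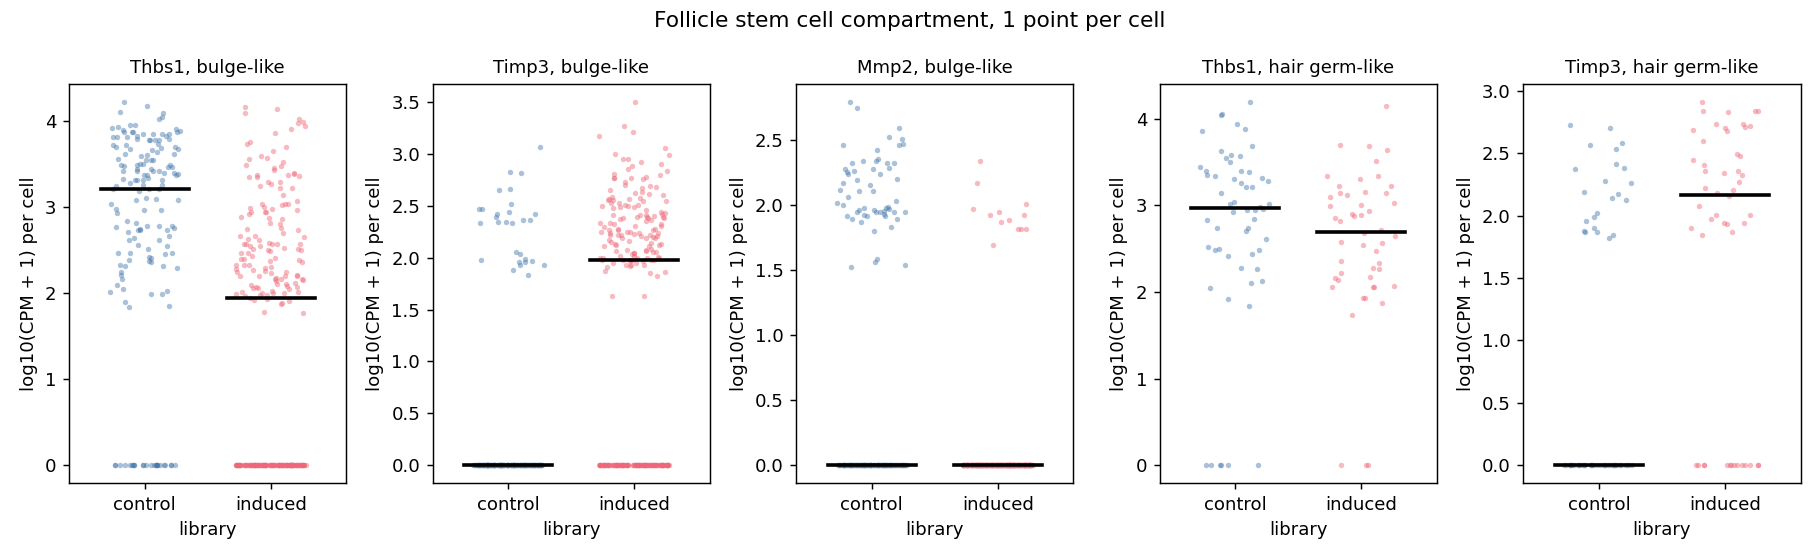
Level per cell (y axis, log10 of CPM plus 1) of Thbs1, Timp3 and Mmp2 in bulge-like cells and of Thbs1 and Timp3 in hair germ-like cells, for the control and the induced library (x axis), with 1 point per cell and a black bar at the median. In bulge-like cells the Thbs1 median is 1623 CPM in the control and 87.0 CPM in the induced library, and the Timp3 median is 0 and 93.1 CPM.

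The other abundant members of the bulge differed less. Postn, periostin, a matricellular protein that aids collagen cross-linking, stood at 1068 and 979 CPM (−0.13, −0.21 to −0.04), with intervals that do not overlap. Its median cell held 1010 and 750.2 CPM, and 90.7% and 79.2% of cells had a UMI. Sparc stood at 617 and 603 CPM (−0.03), Col18a1, a basement membrane collagen, at 193 and 183 CPM (−0.08), and Col6a1 at 188 and 193 CPM (0.03). The intervals of Sparc, Col18a1 and Col6a1 overlap between libraries. Fbln1, fibulin 1, was at 78.1 and 132 CPM (0.76), and Tnc at 62.0 and 77.8 CPM with overlapping intervals. Col16a1, the gene with 2 seed matches, was at 8.04 CPM (14 UMIs) and 18.8 CPM (51 UMIs), a log2 ratio of 1.19 (0.35 to 2.19), but its control level lay under its background of 29.8 CPM and 4 of 13 settings brought it inside 2-fold. Of 24 members tested, 4 were higher past 2-fold, against 4.4% of all 8765 genes, and 2 were lower, against 2.48% of them. Beside Timp3 and Col16a1 the higher ones were Bgn (5 and 19 UMIs) and Aspn (4 and 20 UMIs, with 95% of the induced UMIs in 5 cells), and the lower ones were Thbs1 and Mmp2. The median was −0.02 beside 0.07 for all genes.

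The fibrillar collagens of the bulge were few. Col1a1 had 11 and 19 UMIs and Col3a1 11 and 11, below their background in both libraries. Col1a2 had 34 and 28 UMIs, at 19.5 and 10.3 CPM, both above their background of 11.6 and 4.19 CPM. Its 5 highest cells held 73.5% and 42.9% of these UMIs. A Col1a2 UMI was found in 8.64% and 8.24% of bulge-like cells. The classes that set its background had 18.2% (control suprabasal-like) and 2.35% (induced T cell-like). Col5a2 was at 45.9 and 28.03 CPM (−0.71). Col6a2, Dcn, Fbln2 and Mgp had log2 ratios between −0.87 and −0.33. The type IV chains Col4a1 and Col4a2 were at 30.4 and 30.2 CPM and at 18.9 and 23.2 CPM, with overlapping intervals. In all, 14 members had fewer than 20 UMIs and were not assessed, among them Nid1, Nid2 and Mfap5 with 0 UMIs in both libraries. Taken as 3 counts of the total, 0 of 162 control cells allows a share of up to 1.85% of cells with a UMI, and the exact upper bound is 2.25%. Of the 47 further matrix genes, 21 were tested. Col12a1, a collagen that sits on the surface of fibres, was lower, at 88.4 and 41.7 CPM (−1.08), and Ltbp1 was higher on 3 and 17 UMIs.

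In hair germ-like cells Timp3 was higher in the induced library too, on fewer cells. Timp3 stood at 71.7 CPM (53.1 to 94.8) in the control and 254 CPM (217 to 296) in the induced library, from 49 and 165 UMIs, a log2 ratio of 1.82 (1.36 to 2.32). A UMI was found in 23 of 58 control and 36 of 50 induced cells (39.7% and 72%), and in 15.5% (7.35 to 27.4) and 40% (26.4 to 54.8) after thinning, where the intervals overlap. Under looser gates the log2 ratio was 0.75, and it lay past 2-fold in the other 11 of 12 alternatives. Thbs1, the most abundant member here, was lower in the induced library, at 2148 CPM (2039 to 2260) and 1087 CPM (1008 to 1170), just inside 2-fold at −0.98. In thinned cells its share was 77.6% (64.7 to 87.5) and 60% (45.2 to 73.6), and these intervals overlap. The dissociation response genes were higher in the induced hair germ-like cells, with a median log2 ratio of 0.62, 2 of 16 higher past 2-fold and 0 lower, and their part in these differences was not tested.

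Postn, at 209 and 301 CPM (0.52), Sparc, at 139 and 174 CPM (0.32), and Fbln1, at 155 and 143 CPM (−0.11), were the other members with many UMIs. The Postn value rested on few cells, with 74.4% of the induced UMIs in 5 cells, and was −0.36 without the 5 highest of each library. Of 17 members tested, 2 were higher past 2-fold, against 4.1% of all 5581 genes, and 1 was lower, against 4.68% of them. The remaining higher gene was Bgn with 7 and 32 UMIs, 71.9% of the latter in 5 cells, and the lower one Col1a2 with 17 and 6 UMIs, and the other 10 tested lay between −0.53 for Fbln2 and 0.80 for Fn1. The median was 0.32 beside −0.05 for all genes. Mmp2 had 18 UMIs in the control (26.4 CPM, 15.6 to 41.6, an interval that holds its background of 19.9 CPM) and 0 in the induced library, and no fold is given. By the same rule 0 of 50 cells allows a share of up to 6%, and the exact upper bound is 7.11%. Of the 47 further matrix genes, 18 were tested. Has2, which makes hyaluronan, stood at 199 and 74.0 CPM (−1.42) and Ecm1 at 127 and 60.1 CPM (−1.07), Itga1, a collagen receptor chain, at 23.4 and 63.2 CPM (1.41), and Mfap2 was higher on 9 and 35 UMIs.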

How the data were processed

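Single-cell 3′ RNA libraries (10x Genomics) of back skin from 1 control and 1 miR-205 induced mouse were analysed. The authors made the UMI counts with Cell Ranger (build mm10 per the submitters' processing notes, software version 3.0.1 per the file headers) and deposited raw counts. Cells with more than 200 and fewer than 5000 genes and under 10% mitochondrial UMIs were kept, as the study states. Cells were classed by marker UMIs, using no member: keratin UMIs of at least 1.5% for epithelium, 3 fibroblast genes or 2 papilla genes with 3 UMIs, 2 UMIs each of Krt24 and Cd34 for bulge, and 2 of Lgr5 with at most 1 each of Krt24 and Cd34 for hair germ. These names are rebuilt, since no annotation was used here. Cells meeting several lineages (92 control, 131 induced) were dropped, which also served for doublets, with Scrublet as an alternative (165 and 145 barcodes left out).

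UMIs were summed per class and library. Log2 ratios added 0.5 UMIs to each sum and were taken where the pooled libraries held 20 or more, with exact 95% intervals (conditional binomial for ratios, Poisson for CPM, Clopper-Pearson for shares), scanpy 1.11.5 and scipy 1.17.1. The method was tested on simulated data. These were Poisson counts of summed bulge-like cells, without variation between cells or animals, so they say nothing about that variation. With 1 library against 1, nothing was tested. Named members had at least 50 UMIs and a log2 ratio beyond 1, or were among the 5 with the most UMIs in a population. The members, gene lists and gates were chosen with earlier results of these data known. Alternatives changed the cell filter, gates, clustering, scaling, pseudocount, UMI minimum, background and highest cells.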

Additional observations from a re-analysis of the deposited data

Results flagged for a closer look

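Thbs1 moved in opposite directions in 2 populations. Its log2 ratio, induced over control, was 1.17 in fibroblast-like cells and −1.81 in bulge-like cells, and the difference between them was not tested, as there was 1 library per group. The fibroblast value came from 244 and 713 UMIs, with 62.3% and 37.4% of them in 5 cells, and its control level lay under the background of 218 CPM. The bulge value lay between −2.27 and −1.498 over 14 alternatives. The fibroblast value ran from −0.15 to 8.53 over 13 alternatives and was inside 2-fold in 3, so the opposite direction did not hold under looser gates.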

How the results depend on the processing

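The counts of members past 2-fold and the medians gave 156 values under the alternatives, of which 126 stayed close to the reported value and 30 moved, and the medians of fibroblast-like and papilla-like cells crossed 0. Single members gave 399 values, of which 111 moved. Among members reported past 2-fold 3 changed sign, namely Thbs1 in fibroblast-like cells (−0.15, looser gates), Lum in papilla-like cells (1.41, clusters) and Thbs2 in papilla-like cells (0.57, cells with fewer than 3 fibroblast genes). Among members reported inside 2-fold, the values that crossed 0 included Dcn in fibroblast-like cells (0.08, looser gates), Col1a1 in papilla-like cells (−0.81, looser gates) and Postn in hair germ-like cells (−0.36, without the 5 highest cells). The causes were not tested.

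The counts below describe the processing and are not read as a result about the members. Under these alternatives the share of all genes past 2-fold was not counted, except in papilla-like cells with fewer than 3 fibroblast genes. In fibroblast-like cells 1 member was higher under clusters, 1 was lower both under 5% mitochondrial UMIs and with the mean over cells of CPM, and the median was 0.17 under looser gates. In papilla-like cells the number higher was 1 under 5% mitochondrial UMIs, 1 with the mean over cells, 5 under stricter gates, 8 under clusters, 10 without the 5 highest cells of each gene and 5 in cells with fewer than 3 fibroblast genes. The number lower was 1 under clusters, 2 without the 5 highest cells and 0 in cells with fewer than 3 fibroblast genes, and the median became 0.68 and 0.51 in the last 2. In bulge-like cells the number higher was 2 under 5% mitochondrial UMIs, under clusters and without the 5 highest cells, and 1 with at least 100 UMIs, and 6 were lower with at least 1 UMI. In hair germ-like cells the number lower was 0 under 5% mitochondrial UMIs, with the mean over cells, with at least 100 UMIs and without the 5 highest cells, 2 without the highest Scrublet scores and after subtracting background, 4 under looser gates and 6 with at least 1 UMI, and the number higher was 1 under looser gates and with at least 100 UMIs.

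Stricter gates left 1 hair germ-like cell in each library and clusters left 0, so neither gave a value, and neither did leaving out epithelial cells with any fibroblast or papilla marker. With 1 mouse per group, animal and induction cannot be told apart.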
